A study of Homo sapiens with 24 samples.

Results

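The genes described here make up the class I antigen presentation pathway: the heavy chains HLA-B, HLA-C and HLA-E, the light chain gene B2M, the immunoproteasome subunits PSMB8 and PSMB9, the peptide transporter genes TAP1 and TAP2, and the tapasin gene TAPBP. They were taken by gene symbol from RNA sequencing files of LNCaP cells, an androgen-dependent prostate cancer line, and are 9 of 23207 gene rows. All 9 had enough counts to be tested in charcoal-stripped serum (CSS), which is depleted of androgens, and 7 in fetal bovine serum (FBS), where PSMB8 and PSMB9 were too low. All cells carried a lentiviral short hairpin, added at a multiplicity of infection of 10, and grew under 0.5 µg/ml puromycin after selection in 1 µg/ml. The hairpin was either a non-targeting control (NTC) or one against SIRT1, the deacetylase gene. In FBS there were 3 NTC libraries and 3 libraries of the knockdown named shSIRT1. In CSS there were 18 libraries: NTC cells and a knockdown named 10, each with vehicle, with 1 nM dihydrotestosterone (DHT, an androgen), or with 1 nM DHT plus 10 µM enzalutamide, which blocks the androgen receptor, 3 libraries each. The CSS cells had first spent 48 h in FBS medium and 24 h in CSS medium, and treatment lasted 24 h. The labels speak of stable knockdown clones, do not tell how the hairpin or clone of shSIRT1 relates to that of 10, and do not call the libraries of a group separate cultures. An effect of the hairpin and a difference between clones therefore cannot be told apart, and the p-values measure the spread between these libraries, which may be technical.

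Class I molecules show peptides from inside the cell to cytotoxic T cells. The proteasome cuts proteins into peptides, and in its inducible form, the immunoproteasome, PSMB9 takes the place of PSMB6, PSMB8 that of PSMB5 and PSMB10 that of PSMB7. TAP1 and TAP2 together form the pump that carries peptides into the endoplasmic reticulum, where tapasin, the product of TAPBP, holds an empty class I molecule at the pump until a peptide fits. The finished molecule is a heavy chain paired with beta-2 microglobulin, the product of B2M. HLA-B and HLA-C are classical heavy chains, and HLA-E is a nonclassical one that is read mainly by natural killer cells. Many of these genes are induced by interferon-gamma, in part through IRF1, and NLRC5 is known as a transactivator of class I promoters. Tumours, those of the prostate among them, often have low class I expression.

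In the RefSeq annotation of GRCh38.p14, 8 members lie in the major histocompatibility complex on chromosome 6, from HLA-E at chr6:30489509-30494194 to TAPBP at chr6:33299694-33314078, and B2M lies on chromosome 15 at chr15:44711517-44718145. TAP1 (chr6:32845209-32853704, minus strand) and PSMB9 (chr6:32854192-32859851, plus strand) point away from each other, with start sites 488 bases apart. RefSeq promoter sequences of that build were at hand for 8 of the 9 members, all except HLA-E. The 250 bases before the annotated start are shown for HLA-B and B2M, a heavy chain and the light chain, for the divergent pair TAP1 and PSMB9, and for TAP2, because HLA-B, B2M, TAP1 and PSMB9 moved together in the libraries below and TAP2 did not. They are the minus strand of chr6:31357180-31357429 (HLA-B), the plus strand of chr15:44711267-44711516 (B2M), the minus strand of chr6:32853705-32853954 (TAP1), the plus strand of chr6:32853942-32854191 (PSMB9) and the minus strand of chr6:32838740-32838989 (TAP2), each written 5′ to 3′. Capitals mark any match, on either strand, to 1 of 5 short patterns defined in the next paragraph.
HLA-B: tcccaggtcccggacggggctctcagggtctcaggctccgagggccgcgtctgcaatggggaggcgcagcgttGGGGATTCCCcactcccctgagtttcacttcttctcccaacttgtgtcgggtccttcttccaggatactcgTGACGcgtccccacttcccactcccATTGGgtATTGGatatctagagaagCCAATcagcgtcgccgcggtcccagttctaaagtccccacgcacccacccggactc
B2M: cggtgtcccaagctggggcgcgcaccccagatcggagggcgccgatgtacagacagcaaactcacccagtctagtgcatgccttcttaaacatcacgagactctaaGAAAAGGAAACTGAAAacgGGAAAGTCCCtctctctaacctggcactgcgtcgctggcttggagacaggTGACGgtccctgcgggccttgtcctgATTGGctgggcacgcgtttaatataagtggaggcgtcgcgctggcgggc
TAP1: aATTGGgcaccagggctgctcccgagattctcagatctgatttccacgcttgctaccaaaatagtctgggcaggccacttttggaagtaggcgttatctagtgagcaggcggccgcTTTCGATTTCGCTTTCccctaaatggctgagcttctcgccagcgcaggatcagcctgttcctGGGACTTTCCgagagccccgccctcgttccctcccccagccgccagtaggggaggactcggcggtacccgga
PSMB9: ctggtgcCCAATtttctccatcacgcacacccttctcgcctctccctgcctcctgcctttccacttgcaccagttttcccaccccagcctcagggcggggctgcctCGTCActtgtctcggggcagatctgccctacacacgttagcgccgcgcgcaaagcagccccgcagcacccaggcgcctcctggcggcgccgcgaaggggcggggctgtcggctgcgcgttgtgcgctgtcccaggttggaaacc
TAP2: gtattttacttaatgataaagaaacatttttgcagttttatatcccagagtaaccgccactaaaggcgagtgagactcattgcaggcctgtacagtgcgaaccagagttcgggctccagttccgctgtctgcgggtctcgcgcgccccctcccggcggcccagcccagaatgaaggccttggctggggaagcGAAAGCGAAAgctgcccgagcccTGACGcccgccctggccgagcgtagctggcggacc

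The patterns were searched on both strands in windows of 300 bases, 250 before the start and 50 after it. An interferon-response (ISRE-type) pattern, GAAANNGAAA, was in 3.57% of all 35116 RefSeq windows and in windows of 5 members, B2M, TAP1, TAP2, TAPBP and PSMB8. In TAP1 it stands at positions -134 and -128 and in B2M at -144 and -138, so that 2 copies overlap in each, and TAPBP also has 2 overlapping copies. TAP2 has 1 copy, at -58. A kappaB-type pattern, GGGNNTTNCC, was in 5.68% of all windows and in those of HLA-B, B2M, TAP1 and TAPBP. A gamma-activated sequence (GAS) pattern, TTCNNNGAA, was in 7.66% of all windows and in those of TAP1 and PSMB8, in each case at a second annotated start that is not shown. The short CRE-type core TGACG (24.6% of all windows) was in 6 members and the CCAAT box (34.6%) in 5. The CCAAT match at the far end of the TAP1 stretch and that at the far end of the PSMB9 stretch lie in 13 bases that the 2 stretches share. Matches of different patterns did not overlap. A match describes the sequence and does not show that a factor binds there.

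Libraries held 11894009 to 14196160 counts in FBS and 25236335 to 35108290 in CSS. Levels are given as CPM, the count of a gene relative to the TMM-scaled total count of its library, scaled within each set, as mean ± SD with n = 3 throughout, and a gene is called higher or lower where edgeR's quasi-likelihood test gave a Benjamini-Hochberg adjusted p under 0.05 over all genes tested. SIRT1 itself was lower in every knockdown group. It was 38.2 ± 1.60 CPM in NTC and 8.11 ± 0.788 CPM in shSIRT1 cells in FBS. In CSS it was 57.0 ± 1.30 against 19.5 ± 1.94 CPM with vehicle, 49.2 ± 2.34 against 15.6 ± 2.39 CPM with DHT, and 58.7 ± 2.41 against 19.9 ± 2.03 CPM with DHT plus enzalutamide. Luminal prostate markers summed to 3524 to 4588 CPM in all libraries, but single ones moved. Of these 9, 1, 2 and 2 were called higher and 4, 4 and 3 lower with the knockdown in the 3 CSS treatments, in the order above. Of all genes 15.5%, 19.5% and 15.4% were higher and 19.1%, 23.5% and 19.2% lower. KLK3, 1 of these markers, stood at 0.236 of its NTC level with vehicle and 0.261 in FBS, called lower in both. The 12 leukocyte markers, whose cells are rich in class I molecules, summed to 7.01 to 10.9 CPM in CSS and 11.6 to 13.8 CPM in FBS, most of it CD68 and LYZ. Under DHT the sum was 8.67 to 10.9 CPM in knockdown and 7.42 to 8.53 CPM in NTC libraries, and 2 of the 3 leukocyte markers tested were called higher. With vehicle and with DHT plus enzalutamide the ranges overlapped and none was called. The part of these markers in the results was not tested. Among the defining ones TYROBP was at 0 in 24 libraries, CD3E and MS4A1 in 23 and PTPRC in 12. In each FBS group libraries 1 and 2 differed little more than counting noise (1.55 and 1.60 as the mean chi-square per gene, where noise alone gives about 1), and library 3 stood apart from them (8.89 to 9.39). In CSS, library 2 of knockdown 10 under DHT stood furthest from its group (38.6 against library 1, 22.4 against library 3), while other pairs gave 3.79 to 20.8.

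In CSS, 7 of the 9 members rose with the knockdown under vehicle, under DHT and under DHT plus enzalutamide, and they were the same 7 each time: HLA-B, HLA-C, HLA-E, B2M, TAP1, TAPBP and PSMB9. PSMB9 changed most, by 2.83-fold, 2.75-fold and 2.42-fold. The heavy chains and TAPBP rose 1.35-fold to 1.88-fold, and B2M and TAP1 1.19-fold to 1.35-fold. TAP2 was lower under DHT and not called in the other treatments, and PSMB8 was not called in any. Of all genes tested 34.6% were called under vehicle (15.5% higher, 19.1% lower), 43% under DHT (19.5% higher, 23.5% lower) and 34.6% under DHT plus enzalutamide (15.4% higher, 19.2% lower). The median log2 fold change of the 9 members was 0.53, 0.52 and 0.44, where the median of all genes was -0.0045, -0.0016 and 0.0019. The 3 comparisons share no libraries, but they share the same pair of cell lines. In bulk RNA, fewer cells of a kind and less RNA per cell cannot be told apart.

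**Figure D1:**
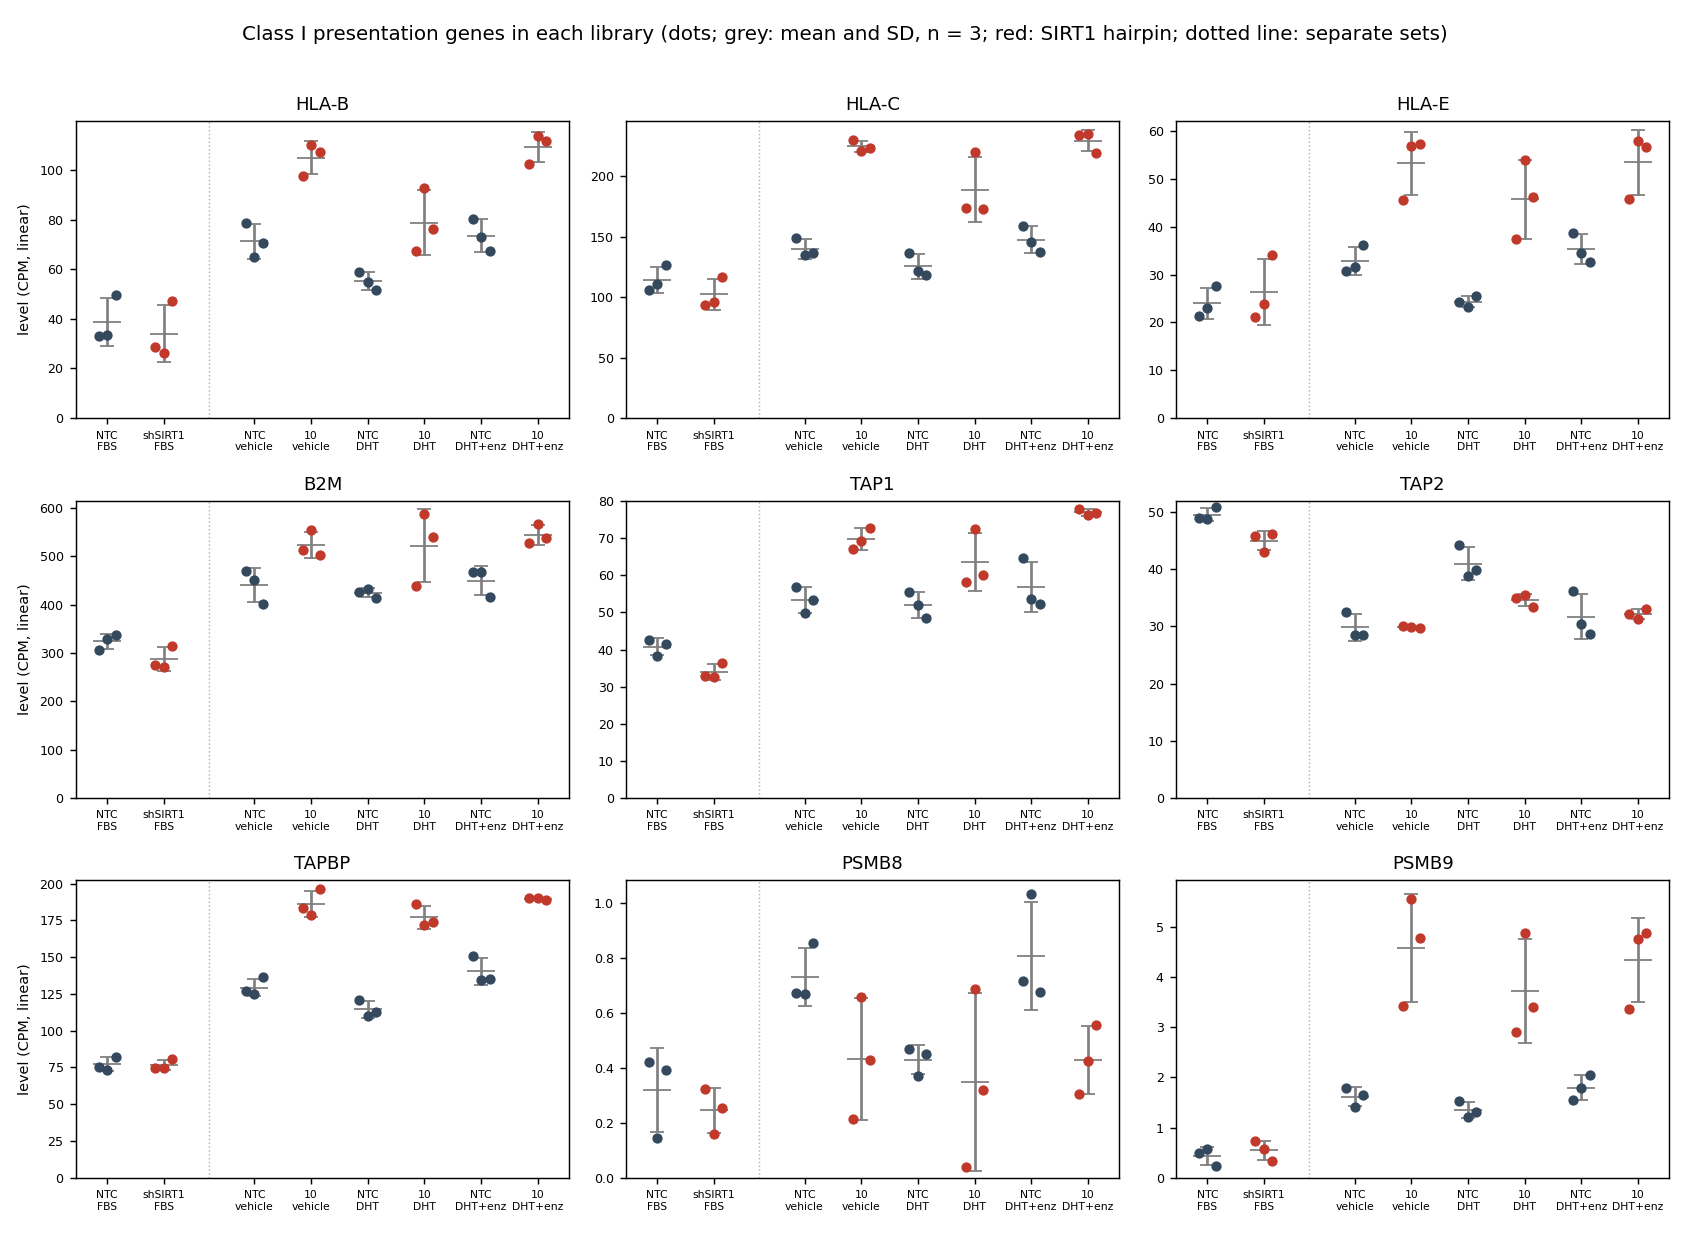
Level of each member in CPM (linear axis from 0) in each of the 24 libraries (dots), with the mean and SD of each group of 3 in grey and SIRT1 hairpin groups in red; the dotted line divides the FBS set from the CSS set, whose levels were not compared. In the CSS set the red groups of HLA-C sit between 173 and 235 CPM and the NTC groups between 118 and 159 CPM, while TAP2 has its highest CSS level in NTC cells under DHT.

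Among the 3 heavy chains, HLA-C had the highest level in CPM. In NTC cells with vehicle its 3 libraries had 149, 134 and 136 CPM, and those of knockdown 10 had 230, 221 and 224 CPM. That was a log2 fold change of 0.68 (SE 0.084, adjusted p = 7.54e-06), with no overlap between the groups. Under DHT the NTC libraries had 137, 121 and 118 CPM and the knockdown libraries 174, 220 and 173 CPM (0.59, SE 0.084, adjusted p = 2.22e-05). With enzalutamide added they had 159, 146 and 137 against 234, 235 and 219 CPM (0.64, SE 0.084, adjusted p = 1.56e-05). All 9 knockdown libraries were above all 9 NTC libraries, and 1 library, knockdown library 2 under DHT, lay well above its group.

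HLA-B, the other classical heavy chain, followed the same order at lower levels. It had 78.6, 64.7 and 70.5 CPM in NTC cells with vehicle and 97.6, 110 and 107 CPM in the knockdown (log2 fold change 0.56, SE 0.10, adjusted p = 0.000311). Under DHT it had 58.8, 55.0 and 51.6 CPM against 67.3, 92.9 and 76.2 CPM (0.52, SE 0.10, adjusted p = 0.000514). The knockdown libraries were above the NTC libraries of the same treatment, but those under DHT reached down into the NTC range of the other treatments. With DHT plus enzalutamide the values were 80.4, 72.8 and 67.2 against 102, 114 and 112 CPM (0.57, SE 0.099, adjusted p = 0.00025).

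HLA-E, the ligand of the NKG2A receptor of natural killer cells, had 30.8, 31.7 and 36.2 CPM in NTC cells with vehicle and 45.7, 56.9 and 57.4 CPM in the knockdown (log2 fold change 0.69, SE 0.12, adjusted p = 0.000263). Under DHT it had 24.3, 23.1 and 25.6 CPM against 37.4, 53.9 and 46.2 CPM (0.91, SE 0.12, adjusted p = 1.48e-05). With DHT plus enzalutamide it had 38.8, 34.6 and 32.6 against 45.8, 58.0 and 56.6 CPM (0.60, SE 0.12, adjusted p = 0.000958). Groups of the same treatment did not overlap, and knockdown library 1 was the lowest of its group in each treatment.

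The heavy chain genes are alike in sequence, and RSEM divides reads that fit several of them. The deposited estimate was a whole number, within 0.005 of a count, in 0 of 24 libraries for HLA-B, 1 for HLA-C and 9 for HLA-E. It was whole in 0 for TAPBP, 7 for TAP2, 8 for B2M and 15 for TAP1, whereas PSMB8 was whole in 24 and PSMB9 in 23. Divided counts were therefore not limited to the heavy chains. The levels of HLA-B, HLA-C and HLA-E, and also of TAPBP, TAP2, B2M and TAP1, depend in part on how reads were divided.

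B2M had the highest level of the members and small changes. Its NTC libraries had 469, 452 and 400 CPM with vehicle, and the knockdown libraries 512, 554 and 502 CPM (log2 fold change 0.25, SE 0.086, adjusted p = 0.0329). Under DHT the values were 427, 433 and 414 against 438, 588 and 540 CPM (0.30, SE 0.086, adjusted p = 0.00951). With DHT plus enzalutamide they were 467, 468 and 415 against 528, 567 and 538 CPM (0.27, SE 0.086, adjusted p = 0.0197). The groups did not overlap, but the gap was narrow under DHT, where knockdown library 1 lay just above the highest NTC library. The call rested on single libraries: without NTC library 3 or knockdown library 2 it was lost with vehicle (adjusted p = 0.137 and 0.106) and with DHT plus enzalutamide (0.0932 and 0.0694), and without knockdown library 2 it was lost under DHT (0.0575).

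The transporter genes parted. TAP1 had 56.8, 49.8 and 53.3 CPM in NTC cells with vehicle and 67.0, 69.3 and 72.9 CPM in the knockdown (log2 fold change 0.39, SE 0.086, adjusted p = 0.00191). Under DHT it had 55.5, 51.9 and 48.6 against 58.3, 72.6 and 60.1 CPM (0.29, SE 0.086, adjusted p = 0.0111), a call lost without NTC library 3 (0.062) or knockdown library 2 (0.0758). With DHT plus enzalutamide it had 64.6, 53.7 and 52.4 against 77.9, 76.3 and 76.7 CPM (0.44, SE 0.085, adjusted p = 0.000737). The TAP1 groups of a treatment did not overlap.

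TAP2, the other chain of the pump, did not follow TAP1. With vehicle its NTC libraries had 32.6, 28.6 and 28.4 CPM and its knockdown libraries 30.1, 29.9 and 29.7 CPM (log2 fold change 0.0036, 95% interval -0.16 to 0.17). With DHT plus enzalutamide they had 36.1, 30.4 and 28.6 against 32.2, 31.3 and 33.1 CPM (0.022, 95% interval -0.14 to 0.19). In these treatments the groups overlapped and the upper bounds lie below the fitted rise of TAP1. Under DHT TAP2 was lower in the knockdown, with 44.3, 38.9 and 39.8 CPM in NTC and 34.9, 35.5 and 33.5 CPM in knockdown libraries (-0.24, SE 0.077, adjusted p = 0.0163). That call was lost without NTC library 1 (adjusted p = 0.0781) or knockdown library 3 (0.0536).

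TAPBP, which encodes the loading chaperone tapasin, had the lowest adjusted p of the members in each of the 3 treatments. It had 127, 125 and 136 CPM in NTC cells with vehicle and 184, 179 and 196 CPM in the knockdown (log2 fold change 0.53, SE 0.057, adjusted p = 2.14e-06). Under DHT it had 121, 110 and 113 against 186, 172 and 174 CPM (0.63, SE 0.058, adjusted p = 1.86e-07), and with DHT plus enzalutamide 151, 135 and 135 against 190, 190 and 189 CPM (0.44, SE 0.057, adjusted p = 1.55e-05). All 9 knockdown libraries lay above all 9 NTC libraries.

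PSMB9, the interferon-inducible beta-1i subunit, rose from a low level. Its NTC libraries had 1.78, 1.41 and 1.65 CPM with vehicle (40 to 54 counts each), and its knockdown libraries 3.43, 5.56 and 4.78 CPM (112 to 169 counts). The log2 fold change was 1.5 (SE 0.22, adjusted p = 4.55e-05). Under DHT it went from 1.53, 1.21 and 1.31 CPM to 2.90, 4.89 and 3.40 CPM (1.46, SE 0.23, adjusted p = 6.52e-05). With DHT plus enzalutamide it went from 1.55, 1.78 and 2.05 CPM to 3.37, 4.77 and 4.88 CPM (1.28, SE 0.22, adjusted p = 0.000206). The lowest knockdown library in CSS was above the highest NTC library. PSMB8, the beta-5i subunit, was at 1 to 29 counts per CSS library. Its log2 fold change was -0.77 with vehicle (95% interval -1.73 to 0.19), -0.27 under DHT (-1.37 to 0.83) and -0.88 with DHT plus enzalutamide (-1.83 to 0.077), none of them called, although the groups did not overlap with vehicle and with DHT plus enzalutamide. By limma on log2(TPM + 1), PSMB8 was called lower with DHT plus enzalutamide (-0.53, adjusted p = 0.0415).

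**Figure D2:**
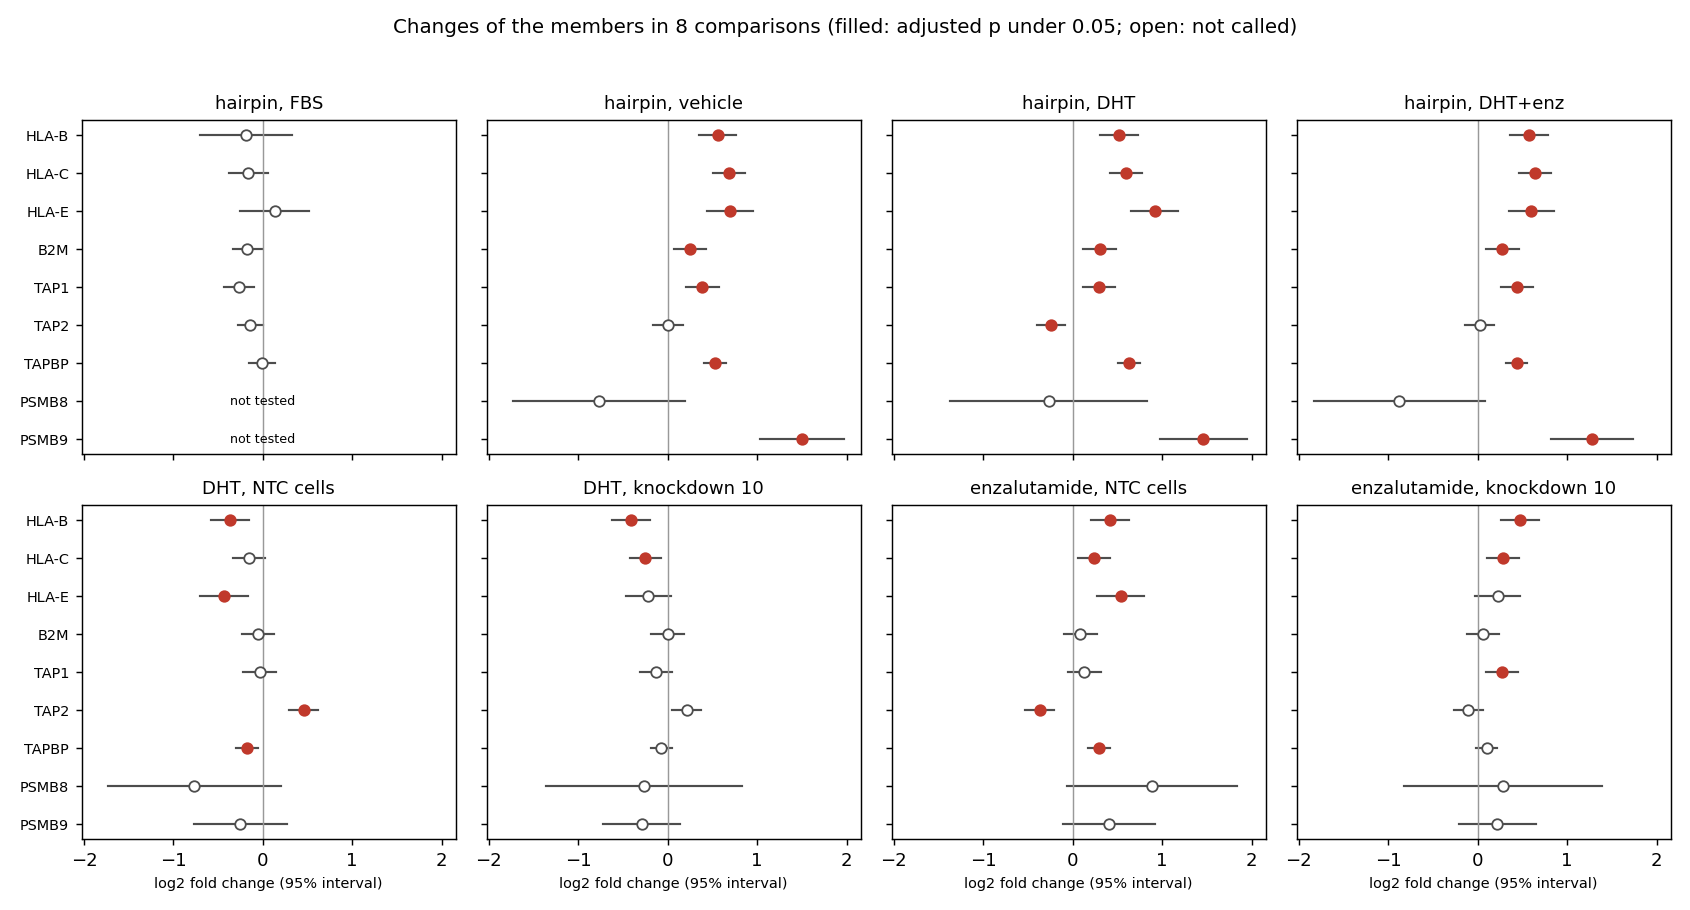
Log2 fold change of each member (dot) with its 95% interval in the 4 knockdown comparisons and in the DHT and enzalutamide comparisons within NTC and knockdown cells; filled dots were called at adjusted p under 0.05. The 3 CSS knockdown panels show the same 7 filled dots to the right of 0, and the FBS panel has no filled dot.

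Libraries with the same number varied together across groups, and the rise was smallest in those numbered 1. Of the 21 member changes called higher in CSS, 20 were smallest in the pair of libraries numbered 1. Among all genes called higher, the pair numbered 1 gave the smallest change in 41.1% with vehicle, 34.4% under DHT and 45.1% with DHT plus enzalutamide. For PSMB9 with vehicle, the log2 ratio was 0.94 in pair 1, 1.97 in pair 2 and 1.54 in pair 3. For B2M under DHT it was 0.038, 0.44 and 0.38, and for HLA-C with vehicle 0.62, 0.71 and 0.72. The markers of basal prostate cells and other prostate lines, nearly all of it from VIM, also followed the number in CSS: they summed to 20.9 to 23.6 CPM in the 6 libraries numbered 1 and 37.1 to 54.6 CPM in the other 12, in NTC and knockdown cells alike. The part of this in the results was not tested. The knockdown libraries were higher than NTC in pair 1 as well, by an amount that differed from member to member.

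NLRC5, the class I transactivator, also varied with the library number in CSS. With vehicle it had 3.66, 9.82 and 6.69 CPM in NTC and 4.62, 19.9 and 14.4 CPM in knockdown libraries. Under DHT it had 3.88, 7.14 and 6.39 against 3.95, 19.9 and 14.4 CPM, and with DHT plus enzalutamide 4.25, 10.9 and 8.36 against 4.37, 21.6 and 16.8 CPM. Library 1 was the lowest in each of the 6 groups. In the test without the replicate number NLRC5 was not called (log2 fold changes 0.95, 1.15 and 0.88, adjusted p = 0.233, 0.138 and 0.26). With the number as a block it was called higher in each treatment (0.90, SE 0.19, adjusted p = 0.000691; 1.03, SE 0.19, adjusted p = 0.000208; 0.79, SE 0.18, adjusted p = 0.00164). Its log2 ratio in pair 1 was 0.34 with vehicle, 0.024 under DHT and 0.041 with DHT plus enzalutamide, where HLA-C in the same pairs had 0.62, 0.34 and 0.56.

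**Figure D3:**
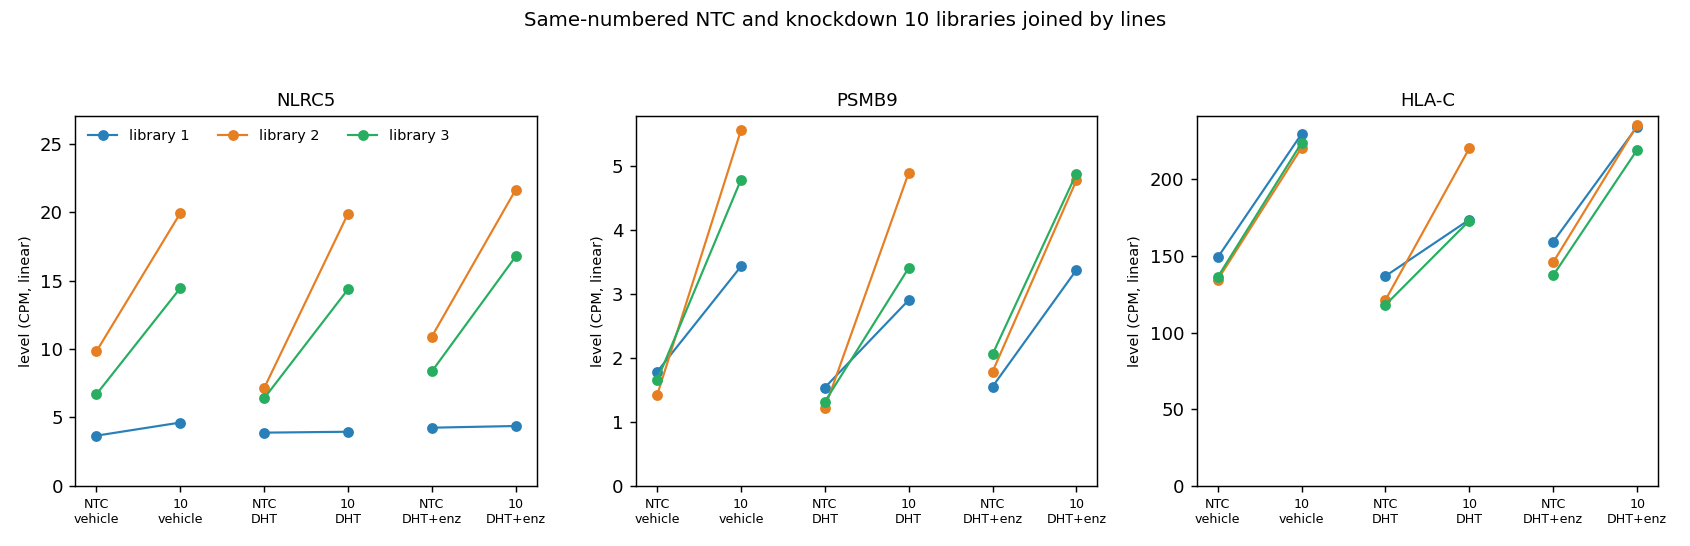
Levels of NLRC5, PSMB9 and HLA-C in CPM (linear axes from 0) in the CSS libraries, with lines joining the NTC and knockdown 10 libraries that carry the same number. NLRC5 stays between 3.66 and 4.62 CPM in all 6 libraries numbered 1 and reaches 14.4 to 21.6 CPM in the knockdown libraries numbered 2 and 3, while HLA-C is higher in the knockdown in every pair.

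In FBS no member was called. In the shSIRT1 comparison 2.71% of all genes tested were called (0.509% higher, 2.21% lower), a count of 389 genes that ran from 103 (without shSIRT1 library 1) to 926 (without NTC library 3) when 1 library was left out. The median log2 fold change of the 7 members tested was -0.16. The edgeR test gave 2 members at an unadjusted p under 0.05, both lower, and DESeq2 and limma called none. The share of all genes at that unadjusted threshold is not given here, so nothing is read from this count. HLA-B had 33.0, 33.4 and 49.8 CPM in NTC and 28.6, 26.3 and 47.2 CPM in shSIRT1 libraries, where library 3 was far above the others in each group (log2 fold change -0.18, 95% interval -0.70 to 0.33). HLA-C had 106, 111 and 126 against 93.9, 95.9 and 117 CPM (-0.16, 95% interval -0.38 to 0.059), and HLA-E 21.4, 23.0 and 27.7 against 21.2, 23.8 and 34.2 CPM (0.14, 95% interval -0.25 to 0.52). The groups of the 3 heavy chains overlapped, and HLA-C and HLA-E had their highest value in library 3 as well.

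B2M had 306, 329 and 337 CPM in NTC cells in FBS and 276, 272 and 315 CPM in shSIRT1 cells (log2 fold change -0.17, adjusted p = 0.269). TAP1 had 42.5, 38.2 and 41.5 against 32.8, 32.7 and 36.4 CPM (-0.26, adjusted p = 0.11), and TAP2 49, 48.8 and 50.9 against 45.9, 43.1 and 46.1 CPM (-0.14, adjusted p = 0.299). The groups of TAP1 and TAP2 did not overlap, those of B2M did. TAPBP had 75.6, 73.2 and 82.4 against 74.8, 74.4 and 80.7 CPM (-0.0084, 95% interval -0.16 to 0.14). With the replicate number as a block, 11.7% of all genes were called, 4.47% higher and 7.22% lower, and 3 members were called lower: HLA-C (-0.16, adjusted p = 0.0406), B2M (-0.17, adjusted p = 0.0296) and TAP1 (-0.26, adjusted p = 0.0222). Of the shSIRT1 libraries only library 3 deviated most like the NTC library of its own number. The pairing behind these calls is therefore weak for libraries 1 and 2. PSMB8 had 2 to 6 counts per library and PSMB9 3 to 9, below the count filter. Fitted without the filter, their log2 fold changes were -0.36 (95% interval -1.77 to 1.05) and 0.30 (95% interval -0.81 to 1.42).

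The change with the knockdown was then compared between the sets, as the change with vehicle in CSS minus the change in FBS. Of all genes tested 13.8% were called, 7.47% with a higher and 6.29% with a lower change in CSS. HLA-C differed by 0.89 on the log2 scale (SE 0.12, adjusted p = 0.000277), TAP1 by 0.69 (SE 0.097, adjusted p = 0.000422), TAPBP by 0.58 (SE 0.088, adjusted p = 0.000739) and B2M by 0.46 (SE 0.10, adjusted p = 0.00814). HLA-B (0.78, adjusted p = 0.0513) and HLA-E (0.60, adjusted p = 0.071) were not called, and were called with the replicate block (adjusted p = 0.018 and 0.00527, where 16.1% of genes were called, 8.82% higher and 7.29% lower). Without shSIRT1 library 3 the difference was 1.09 for HLA-B (adjusted p = 0.00187) and 0.83 for HLA-E (adjusted p = 0.00468), and without knockdown 10 library 1 it was called for HLA-E (0.70, adjusted p = 0.0372). TAP2 (0.18, 95% interval -0.0075 to 0.37), PSMB9 (1.24, 95% interval 0.11 to 2.36, adjusted p = 0.141) and PSMB8 (-0.36, 95% interval -1.97 to 1.25) were not called. Serum and the name of the hairpin or clone differ together between the sets and cannot be told apart, and the gap between full and effective transcript length in the deposited files differed too (50 bases in FBS, 224 to 252 in CSS). The depth of the knockdown differed too: SIRT1 remained at 0.212 of its NTC level in FBS and 0.341 in CSS with vehicle.

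The listed level of another class I gene also stood apart between the sets. HLA-F, a nonclassical heavy chain, stood at 245 to 325 CPM in FBS libraries and 1.97 to 3.78 CPM in CSS libraries, so that in FBS it was above HLA-B, HLA-C and HLA-E. The part of this difference in the results was not tested.

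In CSS fewer members were called in the treatment comparisons than in the knockdown comparisons. In NTC cells DHT lowered HLA-B, HLA-E and TAPBP and raised TAP2, where 29.9% of all genes were called (17.4% higher, 12.5% lower). HLA-B went from a mean of 71.3 ± 6.96 to 55.1 ± 3.59 CPM (log2 fold change -0.37, SE 0.10, adjusted p = 0.01), HLA-E from 32.9 ± 2.90 to 24.3 ± 1.22 CPM (-0.44, SE 0.13, adjusted p = 0.014) and TAPBP from 129 ± 5.99 to 115 ± 5.75 CPM (-0.17, SE 0.057, adjusted p = 0.0292). TAP2 went from 29.9 ± 2.34 to 41.0 ± 2.88 CPM (0.46, SE 0.077, adjusted p = 0.000205), and all its DHT libraries were above all its vehicle libraries. The androgen target KLK3 rose 9.37-fold in the same comparison, from 25.0 ± 2.11 to 234 ± 24.3 CPM. HLA-C (-0.16, 95% interval -0.33 to 0.019), B2M (-0.052, -0.23 to 0.13), TAP1 (-0.035, -0.22 to 0.15), PSMB8 (-0.77, -1.73 to 0.20) and PSMB9 (-0.25, -0.77 to 0.27) were not called. Single libraries decided some of these calls. HLA-B was lost without NTC vehicle library 1 (adjusted p = 0.0544), HLA-E without vehicle library 3 (0.0692), and TAPBP without vehicle library 3 (0.124) or DHT library 2 (0.0939) or 3 (0.0816).

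In knockdown cells DHT lowered HLA-B and HLA-C, where 22.2% of all genes were called (13.3% higher, 8.92% lower). HLA-B went from 105 ± 6.54 to 78.8 ± 13 CPM (log2 fold change -0.41, SE 0.10, adjusted p = 0.00596), with no overlap. HLA-C went from 225 ± 4.55 to 189 ± 27.1 CPM (-0.25, SE 0.083, adjusted p = 0.0396), a call that was lost in 5 of the 6 fits that left out 1 library and held only without DHT library 2. TAP2 went from 29.9 ± 0.199 to 34.6 ± 1.04 CPM with no overlap (0.21, adjusted p = 0.062), and was called with the replicate block (adjusted p = 0.014, where 32.1% of genes were called, 18.1% higher and 14% lower). HLA-E (-0.22, 95% interval -0.47 to 0.037) and TAPBP (-0.072, 95% interval -0.19 to 0.048) were not called. Library 2 under DHT lay above its group for HLA-B, HLA-C and HLA-E. Without it HLA-E (-0.36, adjusted p = 0.0394) and TAP1 (-0.24, adjusted p = 0.037) were also called lower.

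Adding enzalutamide to DHT raised HLA-B and HLA-C in both cell lines, raised HLA-E and TAPBP and lowered TAP2 in NTC cells, and raised TAP1 in knockdown cells. The DHT libraries are shared by the DHT and the enzalutamide comparisons, so the values are given side by side and not as separate support. In NTC cells HLA-B rose by 0.41 on the log2 scale (SE 0.10, adjusted p = 0.00466), HLA-E by 0.54 (SE 0.13, adjusted p = 0.00334), TAPBP by 0.29 (SE 0.057, adjusted p = 0.000884) and HLA-C by 0.23 (SE 0.084, adjusted p = 0.0441), and TAP2 fell by 0.37 (SE 0.077, adjusted p = 0.00136). Of all genes 29.2% were called (12.6% higher, 16.6% lower). The HLA-C call was lost in 4 of 6 fits without 1 library (highest adjusted p = 0.177). In knockdown cells, where 20.3% of genes were called (8.08% higher, 12.2% lower), HLA-B rose by 0.47 (SE 0.10, adjusted p = 0.0026), HLA-C by 0.28 (SE 0.083, adjusted p = 0.0235) and TAP1 by 0.27 (SE 0.086, adjusted p = 0.0303). The last 2 calls were each lost in 4 of 6 such fits (highest adjusted p = 0.0901 for HLA-C and 0.111 for TAP1). In NTC cells B2M (0.084, 95% interval -0.098 to 0.27), TAP1 (0.13, -0.052 to 0.31), PSMB8 (0.89, -0.061 to 1.84) and PSMB9 (0.41, -0.10 to 0.92) were not called. In knockdown cells HLA-E (0.22, 95% interval -0.031 to 0.48), TAPBP (0.10, -0.020 to 0.22), B2M (0.059, -0.12 to 0.24), TAP2 (-0.10, -0.27 to 0.059), PSMB8 (0.28, -0.83 to 1.38) and PSMB9 (0.22, -0.21 to 0.65) were not called. Without knockdown library 2 under DHT, HLA-E was called (0.36, adjusted p = 0.0387). KLK3 fell by 2.60 on the log2 scale in NTC cells and by 2.87 in knockdown cells.

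No member's response to DHT or to enzalutamide was called as different between knockdown and NTC cells by edgeR, DESeq2 or limma. The edgeR test called 0.199% of all genes for DHT (0.0412% higher, 0.158% lower) and 0.35% for enzalutamide (0.268% higher, 0.0824% lower), counts of 29 and 51 genes that ran from 5 to 90 and from 16 to 176 when 1 library was left out. At an unadjusted p under 0.05 there was 1 member for DHT, TAP2 (difference -0.25, 95% interval -0.48 to -0.016, adjusted p = 0.407), and 2 for enzalutamide, TAP2 (0.27, 95% interval 0.035 to 0.49, adjusted p = 0.336) and TAPBP (-0.19, 95% interval -0.36 to -0.022, adjusted p = 0.349). The shares of all genes at that unadjusted threshold are not given here, so nothing is read from these member counts. For HLA-E the intervals ran from -0.15 to 0.59 for DHT and from -0.68 to 0.051 for enzalutamide.

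Ordered by mean CPM, the 6 CSS groups fell into much the same order for HLA-B, HLA-C, HLA-E, B2M, TAP1 and TAPBP: knockdown with DHT plus enzalutamide, knockdown with vehicle, knockdown with DHT, then NTC cells with DHT plus enzalutamide, vehicle and DHT. PSMB9 had the first 2 of these in the opposite order. Neighbours in that order often overlapped. The first 2 groups overlapped for all but TAP1, and the NTC groups with DHT plus enzalutamide and with vehicle overlapped for all 7. TAP2 had its own order, with NTC cells under DHT first at 41.0 ± 2.88 CPM, then knockdown cells under DHT at 34.6 ± 1.04 CPM, and the other 4 groups between 29.9 and 32.2 CPM. PSMB8 was highest in NTC cells with DHT plus enzalutamide (0.809 ± 0.196 CPM) and with vehicle (0.733 ± 0.106 CPM).

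Compared per length, in TPM, which corrects for the length of the transcript, B2M was far above the heavy chains. In NTC cells with vehicle B2M was at 918 ± 53.1 TPM and HLA-B, HLA-C and HLA-E together at 268 ± 9.58 TPM, a ratio of 3.42 ± 0.275. In knockdown cells with vehicle B2M was at 1108 ± 44.3 TPM and the heavy chains at 426 ± 10.9 TPM, a ratio of 2.60 ± 0.125, and the libraries of these groups did not overlap (3.16 to 3.71 against 2.48 to 2.73). The ratio was 3.95 ± 0.219 in NTC and 3.19 ± 0.281 in knockdown cells under DHT, and 3.36 ± 0.157 and 2.64 ± 0.0346 with DHT plus enzalutamide. TAPBP was at 61.6 ± 4.43 TPM, TAP1 at 31 ± 1.33 TPM and TAP2 at 12.5 ± 0.972 TPM in NTC cells with vehicle. PSMB9 was at 3.11 ± 0.298 TPM and PSMB8 at 1.06 ± 0.187 TPM.

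The inducible proteasome subunits were set against the constitutive ones they replace. PSMB9 was 1.00 ± 0.0882% of PSMB6 in NTC cells with vehicle and 3.07 ± 0.835% in knockdown cells. Under DHT it was 0.839 ± 0.0713% and 2.29 ± 0.467%, and with DHT plus enzalutamide 1.19 ± 0.191% and 2.95 ± 0.747%. PSMB9 thus stayed a small part of PSMB6 in every library, at most 3.80%. PSMB8 was 0.330 ± 0.0685% of PSMB5 in NTC cells with vehicle and 0.301 ± 0.208% in knockdown cells. PSMB10 was the most abundant inducible subunit, at 15.1 ± 0.713% of PSMB7 in NTC and 20.5 ± 1.68% in knockdown cells with vehicle.

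**Figure D4:**
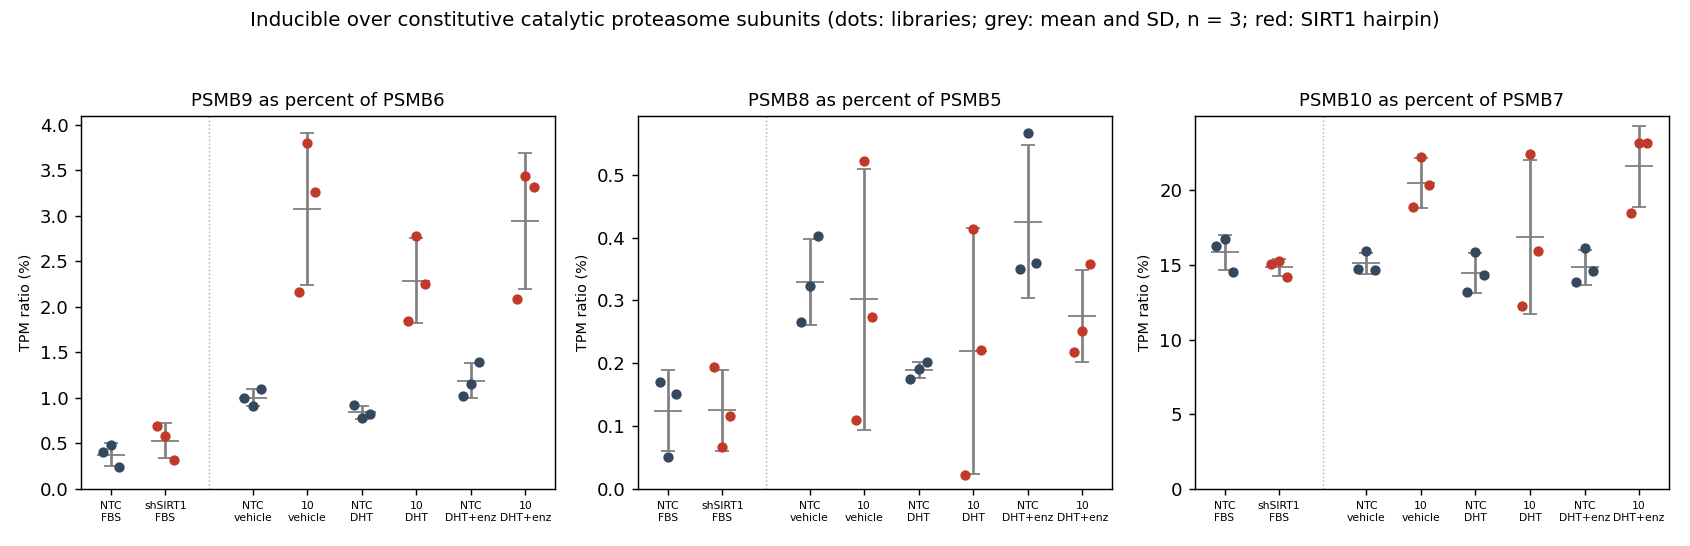
TPM of PSMB9, PSMB8 and PSMB10 as a percentage of the constitutive subunits PSMB6, PSMB5 and PSMB7 in each library (dots; linear axes from 0), with the mean and SD of each group of 3 in grey and SIRT1 hairpin groups in red. PSMB9 lies between 1.84 and 3.80% of PSMB6 in the CSS knockdown libraries and between 0.778 and 1.39% in the CSS NTC libraries.

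Other genes of the pathway were read from lists chosen with earlier results of these data known. Their counts stand against the shares of all genes called in the CSS knockdown, 34.6% with vehicle (15.5% higher, 19.1% lower), 43% under DHT (19.5% higher, 23.5% lower) and 34.6% with DHT plus enzalutamide (15.4% higher, 19.2% lower), and nothing particular to a list is read from them. With the replicate number as a block these shares were 45% (21.2% higher, 23.8% lower), 51.8% (24.4% higher, 27.4% lower) and 44.1% (20.5% higher, 23.6% lower). Of 6 loading partners, all tested, 2 rose with the knockdown in CSS with vehicle, 3 under DHT and 3 with DHT plus enzalutamide, and none fell. TAPBPL, the tapasin-related peptide editor, rose in each treatment (log2 fold changes 1.23, 1.22 and 1.14, adjusted p = 7.48e-07, 4.66e-07 and 1.38e-06), from 14.9 ± 0.260 to 34.9 ± 3.91 CPM with vehicle. ERAP1, which trims peptides in the endoplasmic reticulum, rose as well (0.56, 0.64 and 0.57, adjusted p = 9.99e-06, 1.68e-06 and 8.62e-06). The chaperone CALR was called under DHT (0.22, adjusted p = 0.0035) and the trimming enzyme ERAP2 with DHT plus enzalutamide (0.56, adjusted p = 0.00365). ERAP1 followed the androgen treatments in the way HLA-B did, with -0.28 for DHT and 0.37 for enzalutamide in NTC cells and -0.21 and 0.30 in knockdown cells, all called.

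Of 4 other immunoproteasome and activator genes, PSMB10 was called higher with vehicle (0.42, adjusted p = 0.0358) and with DHT plus enzalutamide (0.47, adjusted p = 0.0187). PSME2, a subunit of the interferon-inducible PA28 activator, was lower in each treatment (-0.36, -0.45 and -0.30, adjusted p = 0.00566, 0.000789 and 0.0167), and its partner PSME1 was lower with vehicle (-0.21, adjusted p = 0.0439). Of the 14 constitutive 20S subunits 3, 4 and 2 were lower and none higher (6, 5 and 3 lower with the block), where 19.1%, 23.5% and 19.2% of all genes were lower. PSMB5, the subunit that PSMB8 replaces, fell in each treatment (-0.60, -0.60 and -0.54, adjusted p = 6.98e-06, 4.12e-06 and 2.03e-05). PSMB9, PSMB10 and PSME2 are all inducible by interferon-gamma. PSMB9 was called higher and PSME2 lower in each treatment, and PSMB10 was not called under DHT. The part of interferon-gamma in these changes was not tested.

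Of the 9 other class I and class I-like genes, 5 were tested in CSS. MR1, which presents vitamin metabolites to MAIT cells, rose with the knockdown (0.34, 0.43 and 0.23, adjusted p = 0.000795, 7.66e-05 and 0.0134), and so did MICA, a stress ligand of the NKG2D receptor (0.28, 0.30 and 0.29, adjusted p = 0.00933, 0.00447 and 0.0076). AZGP1, a secreted class I-like protein, was lower with vehicle (-1.01, adjusted p = 0.000921) and with DHT plus enzalutamide (-1.23, adjusted p = 0.000149). It also rose with DHT in NTC cells (2.16, adjusted p = 7.46e-08), where MR1 (-0.32, adjusted p = 0.00169) and the iron regulator HFE (-0.62, adjusted p = 0.0134) fell.

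Of 17 transcription factors linked to class I promoters, 16 were tested in CSS, and 4 were higher and 2 lower with vehicle, 4 and 3 under DHT, and 4 and 2 with DHT plus enzalutamide, shares near those of all genes (34.6%, 43% and 34.6%). With the block, which adds NLRC5 in each treatment, 6, 7 and 5 were higher and 2, 3 and 2 lower. The 4 called higher without the block were IRF1 (0.59, 0.51 and 0.60), IRF2 (0.43, 0.60 and 0.39), NFKB1 (0.26, 0.35 and 0.33) and CREB1 (0.20, 0.26 and 0.19), with adjusted p between 2.1e-05 and 0.00566. IRF1, an interferon-induced activator, went from 16.9 ± 2.08 to 25.5 ± 2.75 CPM with vehicle. RFX5, a subunit of the complex that binds the X box of class I and class II promoters, fell (-0.39, -0.20 and -0.33, adjusted p = 0.000289, 0.0273 and 0.00148). These calls apply to RNA levels of the factors and not to their activity.

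Of 11 interferon receptor and signalling genes found in the files, 9 were tested in CSS. IFNGR1, a chain of the interferon-gamma receptor, rose in each treatment (0.39, 0.34 and 0.40, adjusted p = 0.000985, 0.00221 and 0.000832), and the feedback inhibitor SOCS3 fell (-1.60, -2.00 and -1.48, adjusted p = 0.00776, 0.0285 and 0.018). Of 28 interferon-stimulated genes, 8 were higher and 3 lower with vehicle, 9 and 4 under DHT, and 6 and 2 with DHT plus enzalutamide, with list medians of 0.16, 0.13 and 0.062. In total these counts lie near the shares of all genes called (34.6%, 43% and 34.6%), but not by direction. A larger share of the list was higher than of all genes (15.5%, 19.5% and 15.4%). A smaller share of it was lower than of all genes (19.1%, 23.5% and 19.2%). With the block 12, 9 and 10 were higher and 4, 4 and 3 lower, and the Janus kinase gene JAK1 was called higher in each treatment (0.33, 0.38 and 0.31, adjusted p = 0.0126, 0.00652 and 0.0198). SP100, a nuclear body gene (0.54, 0.55 and 0.48), and OAS1, an antiviral sensor (0.95, 1.23 and 0.95), rose with adjusted p of at most 0.000298, and the antiviral membrane gene IFITM1 fell (-1.08, -1.44 and -1.23, adjusted p = 0.00961, 0.000963 and 0.00275). OAS3, of the same family as OAS1, fell (-0.35, -0.66 and -0.40, adjusted p = 0.0233, 5.72e-05 and 0.0117). In FBS 5 of 24 genes tested on this list were lower (7 with the block), where 2.21% of all genes were lower (7.22% with the block), with GBP1, a guanylate-binding protein, at -2.27 (adjusted p = 0.00259). The interferon-stimulated list thus moved in mixed directions in CSS, with more calls higher than lower. For the change with vehicle in CSS minus that in FBS, 11 of its 28 genes were called higher and 0 lower. Of all genes 7.47% were called higher and 6.29% lower there. The list median of that difference was 0.45, against 0.032 for all genes. Of 11 class II genes, 5 were tested in CSS, and the calls ran in both directions, with HLA-DMB, a peptide exchanger, lower (-0.61, -0.63 and -0.62) and HLA-DQB1 higher (0.29, 0.49 and 0.30) in each treatment.

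Likeness was described by Pearson's r of log2 CPM over the 18 CSS libraries, among 12061 genes. Libraries of a group share their condition, so r mostly reflects the 6 groups. Between the 7 members that rose, r was 0.75 to 0.95, lowest for B2M with TAPBP and highest for HLA-C with TAP1. TAP2 had r of -0.48 to -0.16 with these 7, and PSMB8 -0.39 to 0.021. The gene most like HLA-B was SESN2 (0.985), the one most like HLA-C QSOX1 (0.976), the one most like HLA-E ABR (0.975), and the one most like B2M FAM3C (0.926). TAP1 was most like AARS (0.964), and HLA-C was next (0.954). TAPBP was most like C5orf4 (0.974), PSMB9 most like ATP6V0A1 (0.971) with TAPBPL next (0.969), TAP2 most like ICOSLG (0.920) and PSMB8 most like TMSB4X (0.885).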

How the data were processed

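RNA sequencing libraries were stranded mRNA libraries made from about 500 ng RNA, per the labels' protocols. Per the submitters' processing notes the authors used CASAVA 1.8.2 and RSEM 1.2.31 on hg19. The aligner is not given in the sources used here. The deposited files list, for each gene symbol, an expected count estimated by RSEM with its TPM and FPKM, with transcript lengths, and hold no coordinates. Expected counts were rounded and tested with edgeR 4.0.16 quasi-likelihood F tests (two-sided, R 4.3.3, TMM, filterByExpr with a minimum count of 10) on 14329 genes in FBS, 14558 in CSS and 15345 in a fit of FBS and vehicle libraries, with Benjamini-Hochberg adjustment over all genes of a comparison and a threshold of 0.05. The deposited TPM was used for levels per length and for limma 3.58.1, and the deposited FPKM in no test. RSEM divides reads among similar genes, so levels of heavy chains and of other members with divided counts depend on that division. The FBS and CSS sets differ in label form and in the length taken off each transcript and were fitted separately. Group comes from the sample titles.

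Same-numbered libraries deviated together in all 8 comparisons of 2 groups (r at least 0.18), so the number was taken as a pairing from the data, and its block as an alternative. In FBS only 1 of the 3 shSIRT1 libraries, library 3, deviated most like the NTC library of its own number. In each CSS comparison 2 or 3 of 3 libraries did. DESeq2 1.42.0, other size factors, no count filter, limma, each library left out, and in FBS libraries 1 and 2 summed or all 24 libraries fitted, were the other alternatives. All 9 members were named, and of each list up to 4 called genes with the lowest adjusted p in a comparison, besides SIRT1, KLK3 and the 3 most alike genes. NLRC5 and HLA-F were added after their values were seen. The members and lists were chosen with earlier results of these data known. The scripts were tested on simulated counts. Depth was 11894009 to 35108290 counts per library.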

Additional observations from a re-analysis of the deposited data

Results flagged for a closer look

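The knockdown change differed between CSS with vehicle and FBS for 4 members by the test of the difference itself. The difference, CSS minus FBS on the log2 scale, was 0.89 for HLA-C (adjusted p = 0.000277), 0.46 for B2M (adjusted p = 0.00814), 0.69 for TAP1 (adjusted p = 0.000422) and 0.58 for TAPBP (adjusted p = 0.000739), by edgeR over all 15345 genes tested. These genes were higher in the CSS knockdown, and their FBS changes were -0.16, -0.17, -0.26 and -0.0084. Such a difference was not limited to class I genes. Of all genes tested 7.47% were called with a higher change in CSS and 6.29% with a lower one. Of the 28 interferon-stimulated genes 11 were called with a higher change and 0 with a lower one. That list was chosen with earlier results of these data known, and its counts are given as a description. Serum and the name of the hairpin or clone differ together between the sets and cannot be told apart.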

How the results depend on the processing

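The count of members called kept within 1.5 times its value under DESeq2, other size factors, limma and no count filter in every comparison. With the replicate block the FBS count went from 0 to 3 (all lower; 1676 genes called in all, 389 without it), TAP2 was called for DHT in knockdown cells and HLA-B and HLA-E for the difference between sets. The block changed no other call of a member. It moved the count of all genes called by over 1.5 times in FBS and also for enzalutamide in knockdown cells (4518, from 2949) and for the differences in the DHT response (427, from 29) and the enzalutamide response (573, from 51). DESeq2 called 157 and 252 genes for these differences, and limma 7 and 24. With 1 library left out the count of all genes called ran from 103 to 926 in FBS, 5 to 90 for the DHT difference and 16 to 176 for the enzalutamide difference. For the CSS knockdown it ran from 4025 to 4622 (vehicle), 5260 to 6379 (DHT) and 3895 to 4463 (DHT plus enzalutamide). For DHT it ran from 3088 to 3974 in NTC and 2268 to 3744 in knockdown cells. For enzalutamide it ran from 3064 to 3875 and 2069 to 3622, and for the difference between sets from 1452 to 2426. In FBS 44 genes were called with libraries 1 and 2 summed, and 876 with all 24 libraries in the fit, and no member in either. With 1 library left out, the number of members called ran from 6 to 7 (vehicle), 6 to 8 (DHT) and 6 to 7 (DHT plus enzalutamide) for the CSS knockdown, was 0 in FBS, and ran from 2 to 4 and 1 to 4 for DHT in NTC and knockdown cells, from 4 to 5 and 1 to 4 for enzalutamide, and from 4 to 6 for the difference between sets, and was 0 for the differences in the DHT and enzalutamide responses. Uncalled changes that turned direction were the following, each with its lowest and highest log2 value over the fits without 1 library. In FBS HLA-B ran from -0.49 to 0.034, HLA-E from -0.092 to 0.27 and TAPBP from -0.046 to 0.042. For the CSS knockdown TAP2 ran from -0.023 to 0.070 with vehicle and -0.045 to 0.14 with DHT plus enzalutamide (also -0.011 by limma), and PSMB8 from -1.18 to 0.21 under DHT. For DHT TAP1 ran from -0.085 to 0.013 in NTC cells, and B2M from -0.10 to 0.091 and PSMB8 from -1.19 to 0.20 in knockdown cells. For enzalutamide in knockdown cells B2M ran from -0.037 to 0.16 and PSMB8 from -0.20 to 1.2. The causes were not tested, other than that these fits have fewer libraries. Limma called PSMB8 lower in the knockdown with DHT plus enzalutamide (adjusted p = 0.0415) and PSMB9 for the difference between sets (adjusted p = 0.0221), and did not call TAPBP for DHT in NTC cells (adjusted p = 0.105). With no count filter HLA-B and HLA-E were called for the difference between sets (adjusted p = 0.0286 and 0.0491). At 2 to 9 counts PSMB8 and PSMB9 in FBS are limited by depth.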

Other observations

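Some genes around the pathway were also called in the androgen comparisons. Of the 28 interferon-stimulated genes tested in CSS, DHT raised 5 and lowered 2 in NTC cells and raised 4 and lowered 2 in knockdown cells, by edgeR, which is near or below the 29.9% and 22.2% of all genes called. OAS3, an antiviral RNA sensor, rose by 1.58 on the log2 scale in NTC cells (adjusted p = 1.18e-08) and by 1.27 in knockdown cells (adjusted p = 3.42e-07). GBP1, a guanylate-binding protein, rose by 1.07 and 1.00 (adjusted p = 0.000345 and 0.00234), and the chemokine CXCL10 by 1.28 and 0.97 (adjusted p = 0.00185 and 0.0205). With enzalutamide added, OAS3 fell by 1.64 and 1.38, GBP1 by 1.23 and 0.98, and CXCL10 by 1.31 and 1.2, all called, against the same DHT libraries.

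In the class II list, HLA-DQB1, a chain of the HLA-DQ molecule, fell with DHT by 0.54 in NTC cells (adjusted p = 0.00129) and by 0.35 in knockdown cells (adjusted p = 0.0283), while HLA-DMA, a chain of the peptide exchanger HLA-DM, rose by 0.39 and 0.61 (adjusted p = 0.00722 and 0.000252). PSME1, a subunit of the PA28 proteasome activator, fell with DHT by 0.36 and 0.32 (adjusted p = 0.00171 and 0.00579).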
